A study of Mus musculus with 28 samples.

Results

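The genes of oxidative phosphorylation were followed across mouse blood progenitors and MLL-AF9 leukemia cells on Affymetrix arrays. They were picked by gene symbol alone, as every probe set annotated to exactly 1 gene whose symbol begins with Nduf followed by a, b, c, s or v, is Sdha, Sdhb, Sdhc or Sdhd, or begins with Uqcr, with Cox4 to Cox8 or with Atp5. The rule found 84 genes on 156 probe sets, out of 12393 genes on 20380 probe sets that name 1 gene. The 84 comprised 39 genes of complex I, 4 of complex II, 8 of complex III, 16 of complex IV and 17 of complex V. Of the complex I genes, 6 encode core subunits, 16 accessory subunits of the Ndufa, Ndufs and Ndufv series, 12 accessory subunits of the Ndufb and Ndufc series, and 5 (Ndufaf1, Ndufaf3, Ndufaf4, Ndufaf5 and Ndufaf7) are assembly factors that share the prefix without staying in the finished enzyme.

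The 28 arrays fell into 2 sets, whose RNA was amplified on different days, and the sets were analysed apart. The sorted set held 22 arrays of mouse bone marrow cells isolated by surface markers. Its 5 groups were Lin-, sca+, kit+ cells enriched for hematopoietic stem cells (HSC, 5 arrays), and 4 kinds of Lin-, sca-, kit+ cells: common myeloid progenitors (CMP, 4 arrays, labelled FCR+ and CD34low), granulocyte-macrophage progenitors (GMP, 4 arrays, FCR+ and CD34high), megakaryocyte-erythroid progenitors (MEP, 3 arrays, FCR- and CD34-) and leukemic cells with the GMP surface profile (L-GMP, 6 arrays, FCR+ and CD34+). The L-GMP belong to the study's MLL-AF9 leukemia, in which an MLL-AF9 fusion gene had been introduced into normal GMP. The transduced set held GMP expressing GFP (3 arrays) and GMP expressing MLL-AF9 (3 arrays). Age and strain are not given in the sources used here, and nothing there says that replicates came from separate animals, so p-values measure the spread between these arrays, which may be technical.

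Oxidative phosphorylation is the last stage of aerobic ATP production in the inner mitochondrial membrane. Complex I takes electrons from NADH and complex II from succinate, complex III passes them to cytochrome c, complex IV hands them to oxygen, and complex V uses the proton gradient built on the way to make ATP. The subunits studied here are encoded in the nucleus and must be imported to join partners encoded in mitochondrial DNA. Hematopoietic stem cells are known for low mitochondrial respiration and reliance on glycolysis, while dividing progenitors respire more.

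All levels below are log2 intensities of 1 probe set per gene, the brightest, after scaling each array to a common trimmed mean and raising values under the 25th percentile to that floor. A level of one gene says nothing about that of another, because probe sets differ in brightness. A difference is the first group's mean minus the second's, given with its standard error, and a gene was called where limma's adjusted p over all genes tested was under 0.05. After a filter on dim genes, 8425 genes including 82 members were tested in the sorted set, Cox7a1 and Cox8b being too dim, and 7233 genes including 79 members in the transduced set, where Cox4i2, Cox6b2 and Cox7c were also too dim. The members left out in either set are all complex IV genes. Array medians as deposited ran from 90.8 to 116 in the sorted set and from 247 to 267 in the transduced set. Summed marker genes matched the labels of HSC, GMP, MEP and L-GMP, though not every single marker did, and some went against the label of CMP. The summed intensity of the 5 measured HSC markers was 4420 to 4691 on HSC arrays against 334 to 503 on GMP arrays, that of the 7 GMP markers was 31961 to 37271 on GMP and 18858 to 28297 on L-GMP arrays, and that of the 6 erythroid markers was 7363 to 10386 on MEP against 269 to 307 on GMP arrays. Klf1 lay at the floor in HSC, GMP and L-GMP, Procr in GMP, MEP and L-GMP, and Fcgr3 in HSC and MEP. Other markers did not follow the labels. Mecom was at 5.70 to 5.82 in all 5 sorted groups, and Tek at 7.36 in HSC, 7.43 in CMP and 7.30 in MEP. Csf3r was at 7.97 in both HSC and GMP, and Hba-a1 was lowest in MEP (6.95). On the arrays labelled CMP, FCR+ and CD34low, the Fc receptor gene Fcgr3 was at 5.47 ± 0.23 (SD, n = 4), near the floor of 5.27 and far under the 9.51 ± 0.35 of GMP, and Cd34 was at 9.57 ± 0.26, above the 8.94 ± 0.14 of GMP labelled CD34high. In the sorted set macrophage markers summed to 705 to 1594 in HSC and 4021 to 4253 in GMP, mature neutrophil markers overlapped in all 5 groups (2375 to 21698), and B cell markers stayed between 361 and 762, with Ebf1 at the floor in all 5 sorted groups. The part of other cells in the differences below was not tested. In pooled cells of this kind, fewer cells of a type and less RNA per cell cannot be told apart.

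Averaged over the 82 members, respiratory chain transcripts were lowest in the stem cell fraction and highest in GMP and MEP, with the leukemic cells between HSC and GMP. Single parts departed from this order, and in complex II the L-GMP mean was the lowest of the 5 groups. The mean level over the 82 members was 10.33 ± 0.05 (SD, n = 5) in HSC, 10.46 ± 0.03 (n = 6) in L-GMP, 10.53 ± 0.08 (n = 4) in CMP, 10.68 ± 0.05 (n = 4) in GMP and 10.69 ± 0.16 (n = 3) in MEP. The HSC arrays (10.25 to 10.38) and the L-GMP arrays (10.43 to 10.50) did not overlap, and both lay under every GMP array (10.61 to 10.72). CMP arrays (10.45 to 10.63) overlapped with L-GMP and GMP, and MEP and GMP did not differ beyond their spread, 1 MEP array (replicate 3, at 10.87) standing above the other 2. Over the same arrays the mean of all 8425 genes differed little between groups, from 8.29 in MEP to 8.34 in HSC. Scaling each array to a common trimmed mean largely sets this value, so it does not show equal total RNA. Gene by gene, HSC had the lowest of the 5 group means for 50 of the 82 members, or 61.0%, against 23.2% of all genes tested. L-GMP were lowest for another 23 members, or 28.0%, close to their 26.8% of all genes. MEP were highest for 38 members (46.3%, against 28.5% of all genes) and GMP for 34 (41.5% against 15.5%).

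**Figure D1:**
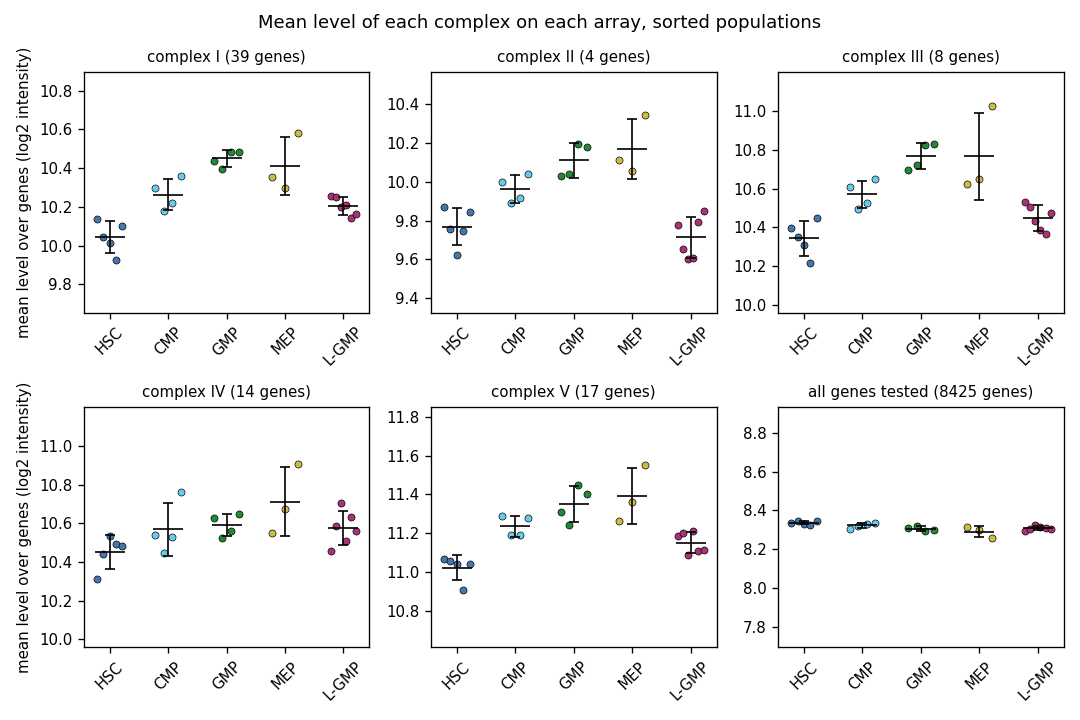
Mean log2 level of the tested genes of each complex (39 of complex I, 4 of II, 8 of III, 14 of IV, 17 of V) and of all 8425 genes on each array of the 5 sorted groups; dots are arrays, the bar is the group mean and the error bar its SD, and all panels span the same range. HSC lie lowest in complexes I, III, IV and V, and L-GMP lie lowest in complex II. The panel of all genes is nearly flat, which the scaling of arrays to a common trimmed mean largely sets.

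Most respiratory chain genes were lower in the stem cell fraction than in GMP. Of the 82 members, 58 were lower in HSC than in GMP and 2 were higher, whereas 21.7% of all genes tested were called lower and 19.4% higher. The median difference over the members was -0.34, against 0.01 over all genes. In 57 members every HSC array lay below every GMP array, a pattern seen in 19.1% of all genes. The 25th and 75th percentiles of the members' differences were -0.51 and -0.23, so most were small shifts in 1 direction. Without the 5 assembly factors, 54 of 77 members were lower and 2 higher. Leaving out 1 array at a time gave between 48 and 60 calls in all. The mean level of immediate early genes also differed between the sorted groups. It ran from 8.59 to 11.16 on HSC arrays, 7.47 to 10.09 on CMP, 7.31 to 9.40 on GMP, 9.64 to 10.09 on MEP and 7.01 to 7.87 on L-GMP arrays. Its part in the differences between these groups was not tested.

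**Figure D2:**
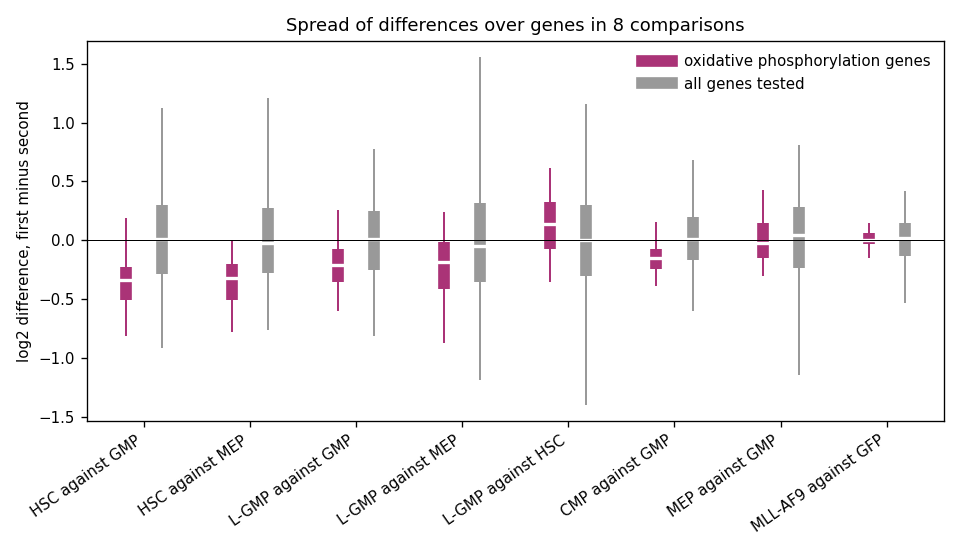
Spread of log2 differences over the members and over all genes tested in each of 8 comparisons; the thin line runs from the 5th to the 95th percentile, the thick bar from the 25th to the 75th, and the white tick is the median. The members' median is -0.34 for HSC against GMP and -0.32 for HSC against MEP. In all 8 comparisons the SD over the members is smaller than that over all genes. It is 0.096 against 0.326 in MLL-AF9 against GFP and 0.300 against 0.698 in HSC against GMP. The members are brighter on average than all genes tested, and the sets were not matched for level.

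Complex I carried the largest share of these calls. In HSC, 32 of its 39 genes were lower than in GMP and none was higher, with a median difference of -0.41. The Ndufb and Ndufc subunits, which belong to the membrane arm, had the largest share of calls among the classes: 11 of 12 were lower with a median of -0.55, and the same count held with the intensities as deposited and after quantile normalization. Ndufb7, a small subunit of that arm, had levels of 10.28, 10.29, 10.27, 9.98 and 10.13 in HSC, 10.53, 10.55, 10.58 and 10.72 in CMP, 11.01, 10.93, 10.90 and 11.11 in GMP, and 10.43, 10.48 and 10.61 in MEP. All 5 HSC arrays were under all other normal arrays, and GMP were highest of the normal groups without overlap. The Ndufb7 difference between HSC and GMP was -0.80 ± 0.09 (adjusted p = 3.81e-07), that of Ndufb1 -0.80 ± 0.13 (2.86e-05) and that of Ndufb6 -0.70 ± 0.12 (7.69e-05). Ndufb11 was the member of this series that did not pass, at -0.14 ± 0.07 (adjusted p = 0.0966).

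The 6 core subunits measured, which hold the flavin and the iron-sulfur clusters or line the path to quinone, were lower in HSC in 5 cases, with a median of -0.37. Ndufv1, the NADH-binding subunit, was 10.30, 10.15, 10.18, 9.91 and 10.20 in HSC against 10.52, 10.53, 10.61 and 10.68 in GMP. The groups did not overlap, and the difference was -0.44 ± 0.09 (adjusted p = 0.000495). Ndufs8 (-0.42 ± 0.11, 0.00425), Ndufv2 (-0.41), Ndufs3 (-0.32 ± 0.12, 0.0369) and Ndufs7 (-0.27 ± 0.10, 0.043) were also called, the Ndufs3 and Ndufs7 calls being lost on leaving out single arrays, while Ndufs1 was not (-0.17 ± 0.14, 0.361). With the intensities as deposited 3 of the 6 core subunits were called, and after quantile normalization 4. Among the 16 accessory Ndufa, Ndufs and Ndufv genes 12 were lower, led by Ndufa1 at -0.64 ± 0.08 (3.04e-06).

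**Figure D3:**
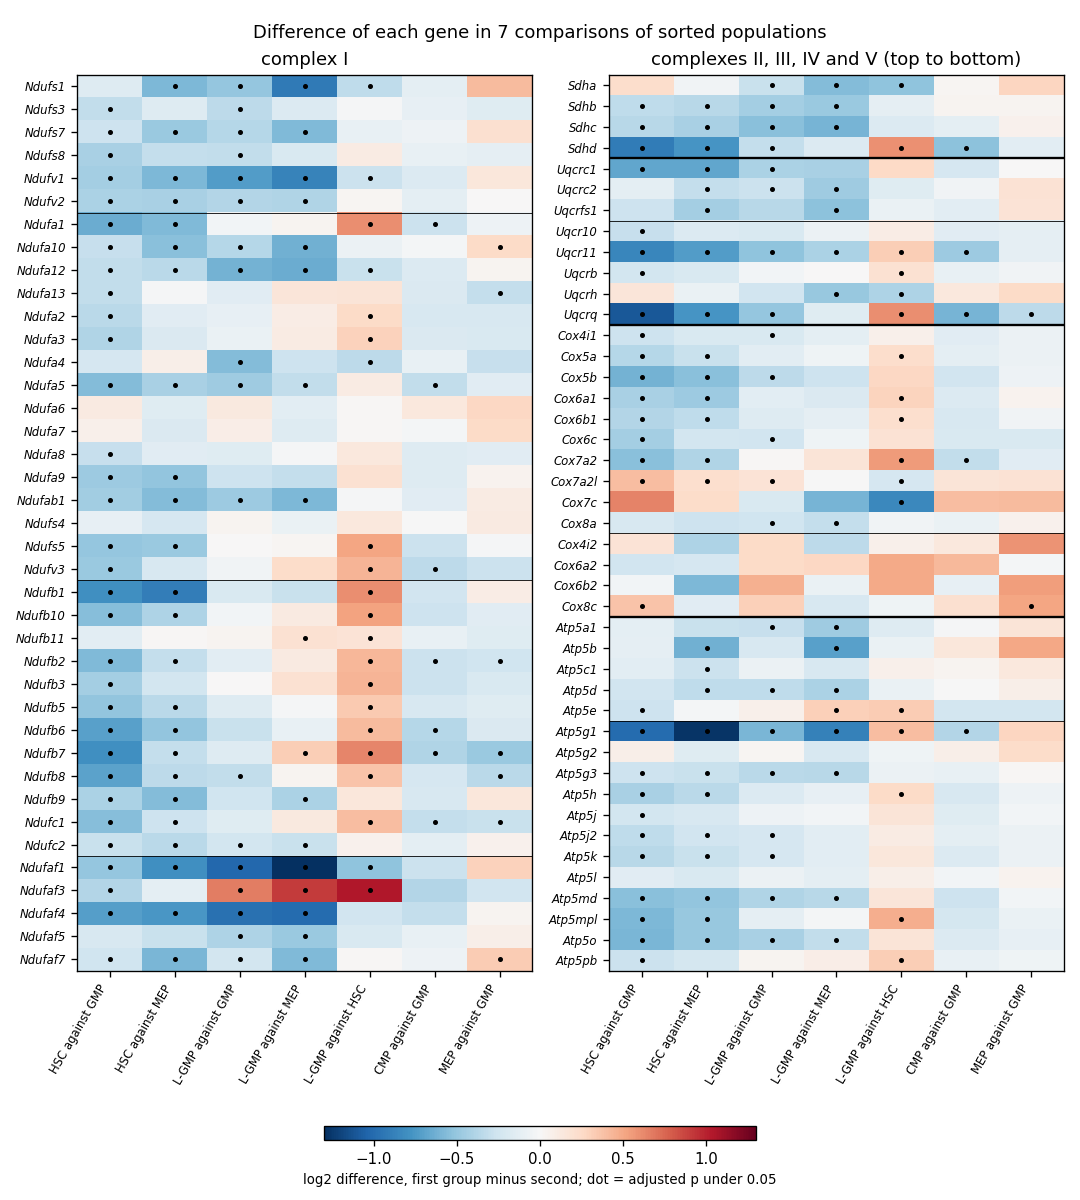
Heat map of the log2 differences of the 82 tested members (rows) in 7 comparisons of the sorted groups (columns), complex I on the left and complexes II to V on the right; blue is lower and red higher in the first group, and a dot marks adjusted p under 0.05. The column of HSC against GMP is blue in 73 of 82 rows, and Cox7a2l and Cox8c are its 2 called red cells.

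Complex II, the smallest complex and the one that also works in the citrate cycle, split between its members. Its membrane anchor Sdhd was among the genes most reduced in HSC, at 9.05, 8.80, 8.56, 8.96 and 8.89 against 9.72, 9.80, 9.70 and 9.80 in GMP, a difference of -0.91 ± 0.11 (adjusted p = 1.54e-06). The HSC arrays all lay under the GMP arrays, but the second probe set of Sdhd gave 0.26 (0.188), so the 2 disagree. The iron-sulfur subunit Sdhb (-0.33) and the anchor Sdhc (-0.36) were also lower. Sdha, which carries the flavin and binds succinate, was not: its levels were 10.31, 10.48, 10.16, 10.23 and 10.27 in HSC and 10.001, 9.88, 10.34 and 10.03 in GMP, overlapping groups with a difference of 0.23 ± 0.11 (0.11) and of -0.23 (0.154) on the second probe set. Under the deposited scale 1 of the 4 subunits was called lower in place of 3.

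In complex III, 5 of 8 genes were lower in HSC, and 4 of these were small subunits. Uqcr11 was 10.13, 9.998, 9.93, 9.66 and 10.06 in HSC against 10.76, 10.96, 10.84 and 10.66 in GMP, without overlap, a difference of -0.85 ± 0.11 (adjusted p = 1.66e-06). Uqcrq had the largest difference of all members, -1.11 ± 0.11 (6.42e-08), with 8.77 to 9.11 in HSC and 9.97 to 10.17 in GMP, but its second probe set went the other way, at 0.46 (0.0764). Uqcrc1, a core protein of the matrix side, differed by -0.67 ± 0.16 (0.00215), whereas Uqcrc2 (-0.12 ± 0.08, 0.234) and the Rieske iron-sulfur protein Uqcrfs1 (-0.27 ± 0.15, 0.156) were not called.

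Complex IV held both members that were higher in HSC. Of its 10 widely expressed genes 7 were lower than in GMP and 1 was higher, and of the 4 tissue isoforms tested 1 was higher. Cox7a2, the common form of subunit 7a, was 12.22, 12.22, 12.17, 12.06 and 12.20 in HSC against 12.64, 12.70, 12.71 and 12.82 in GMP, a difference of -0.54 ± 0.10 (adjusted p = 0.000131). Its relative Cox7a2l, which takes the place of subunit 7a where complexes III and IV join in supercomplexes, ran the other way, at 11.93, 12.003, 11.94, 11.96 and 11.99 in HSC against 11.58, 11.60, 11.58 and 11.51 in GMP. Neither pair of groups overlapped, and the Cox7a2l difference was 0.40 ± 0.06 (3.52e-05), with the same sign on all 3 of its probe sets. Set against each other, the difference of Cox7a2 minus that of Cox7a2l was -0.94 (exact permutation test over arrays, two-sided p = 0.0159, the smallest that 5 against 4 arrays allow, and 0.0423 adjusted over the 24 tests of paralogue pairs). These pair tests, here and below, were added after the data were seen. The testis form Cox8c was higher by 0.37 ± 0.14 (0.0374), from overlapping groups and a call lost with single arrays left out.

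Complex V gave different counts for its membrane part and its catalytic head. Of 12 genes of the Fo part and stalks 10 were lower in HSC than in GMP, but of the 5 genes of the F1 head 1 was, and none under the other 2 scalings. The classes were not tested against each other. The catalytic Atp5b (-0.12 ± 0.18, adjusted p = 0.646) and its partner Atp5a1 (-0.13 ± 0.12, 0.422) did not pass. The sharpest contrast lay among 3 genes that encode the same mature protein, the c subunit that forms the rotating ring. Atp5g1 was 9.69, 9.55, 9.30, 9.34 and 9.49 in HSC, 10.15, 10.05, 9.98 and 10.18 in CMP, 10.38, 10.28, 10.68 and 10.55 in GMP, and 10.59, 10.66 and 11.002 in MEP. The group means stood in that order, with HSC and CMP separate from each other and from the rest, and GMP and MEP overlapping. Atp5g1 differed by -1.0 ± 0.11 between HSC and GMP (2.56e-07) and by -1.28 ± 0.12 between HSC and MEP (2.9e-08). Atp5g3 was at most 12.11 on any HSC array and at least 12.20 on any GMP array, a smaller difference of -0.27 ± 0.07 (0.0059), and Atp5g2 was 11.25 to 11.66 and 11.29 to 11.69, with a difference of 0.08 ± 0.11 (0.594). The gap between Atp5g1 and Atp5g2 in the size of the difference was -1.08, and between Atp5g1 and Atp5g3 -0.73 (exact permutation tests, two-sided p = 0.0159 for each, 0.0423 adjusted over the 24 pair tests). That between Atp5g2 and Atp5g3, 0.35, did not pass the same test (exact p = 0.0317, adjusted 0.0635).

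**Figure D4:**
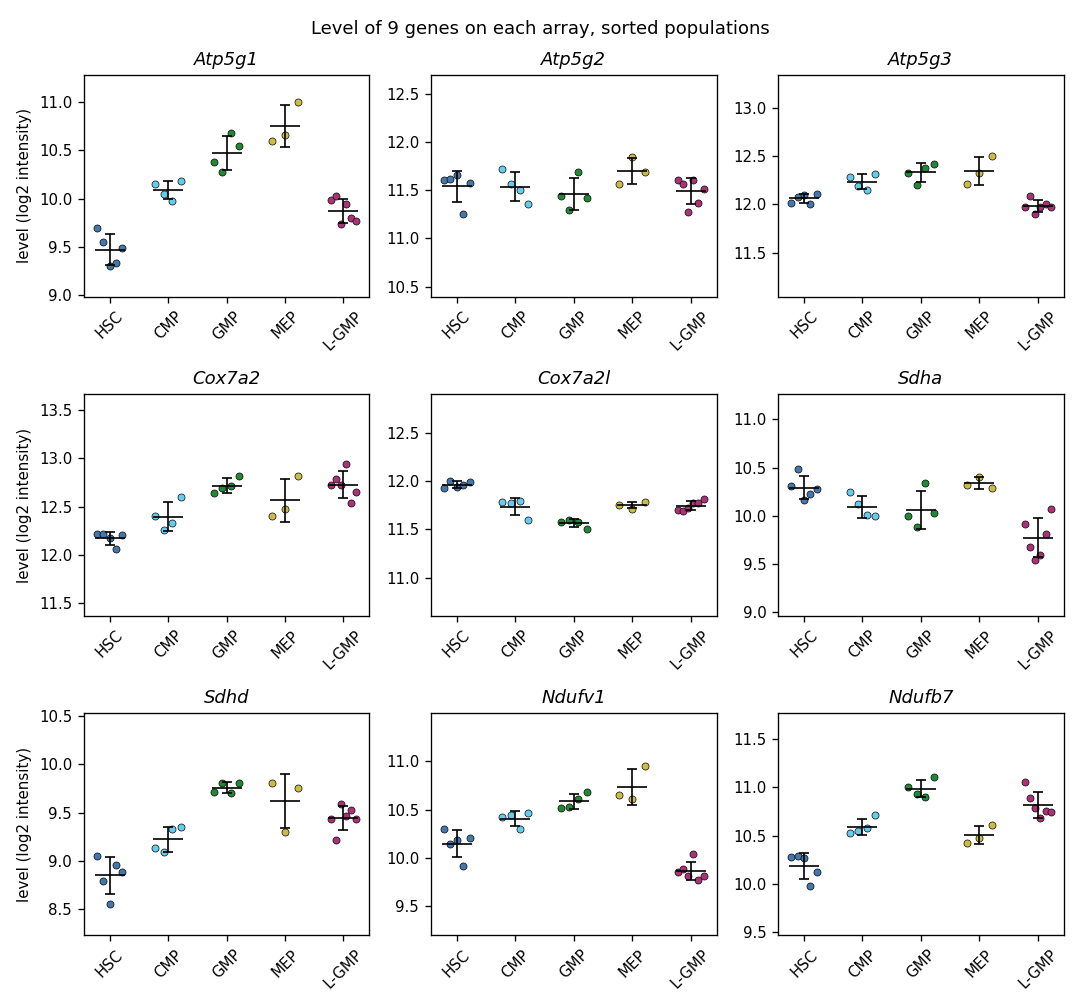
Log2 level per array of 9 genes (Atp5g1, Atp5g2, Atp5g3, Cox7a2, Cox7a2l, Sdha, Sdhd, Ndufv1, Ndufb7) in the 5 sorted groups; dots are arrays, the bar is the mean and the error bar the SD. Atp5g1 separates HSC (9.30 to 9.69) from GMP (10.28 to 10.68) while Atp5g2 overlaps, Cox7a2 and Cox7a2l run in opposite directions, and L-GMP hold the lowest Ndufv1 levels but not the lowest Ndufb7 levels.

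Promoter sequences are shown for genes that moved in different ways across the groups. Nuclear respiratory genes are known targets of NRF1, GABPA (also called NRF2) and YY1, and ESRRA acts with the coactivators of mitochondrial growth. Promoters of 300 bases, from 250 before to 50 after the start site, came from RefSeq (GRCm38.p6), which held one for 70 of the 84 members and for 27025 genes in all. Stretches upstream of the start site that lie outside annotated genes are printed 5′ to 3′ on the strand of the gene. Capitals mark the NRF1 motif, GCGCA and GCGC with any 1 base between them, or the GABPA motif, CCGGAAG, on either strand, letters that do not overlap each other in these stretches. The first 2 are c-subunit genes, of which Atp5g1 was low in HSC and Atp5g2 was not. They lie at chr11:96075695-96075781 and chr15:102671048-102671197, both on the minus strand, and the Atp5g1 stretch ends 64 bases before the start site.
Atp5g1: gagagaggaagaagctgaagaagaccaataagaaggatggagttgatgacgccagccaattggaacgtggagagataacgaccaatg
Atp5g2: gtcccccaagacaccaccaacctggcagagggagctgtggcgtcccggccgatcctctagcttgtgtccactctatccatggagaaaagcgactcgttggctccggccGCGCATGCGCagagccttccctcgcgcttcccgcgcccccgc
The next 2 belong to complex II, Sdha at chr13:74350241-74350316 and Sdhd at chr9:50603850-50603900, both on the minus strand, and show the subunit that was not lower in HSC and the one with the largest difference.
Sdha: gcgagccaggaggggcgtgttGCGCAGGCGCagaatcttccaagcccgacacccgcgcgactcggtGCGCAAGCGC
Sdhd: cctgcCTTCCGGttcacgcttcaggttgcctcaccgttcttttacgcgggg
The last 3 are genes lower in HSC from complexes I, III and IV, Ndufb7 at chr8:83566608-83566757 on the plus strand, Uqcr11 at chr10:80406822-80406971 and Cox6a1 at chr5:115348959-115349108 on the minus strand.
Ndufb7: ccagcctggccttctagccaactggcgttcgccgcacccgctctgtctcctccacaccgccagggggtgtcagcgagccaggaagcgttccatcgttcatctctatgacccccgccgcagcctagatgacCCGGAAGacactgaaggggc
Uqcr11: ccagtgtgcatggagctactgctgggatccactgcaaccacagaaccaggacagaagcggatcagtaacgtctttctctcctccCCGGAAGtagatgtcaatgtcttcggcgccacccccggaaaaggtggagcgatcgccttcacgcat
Cox6a1: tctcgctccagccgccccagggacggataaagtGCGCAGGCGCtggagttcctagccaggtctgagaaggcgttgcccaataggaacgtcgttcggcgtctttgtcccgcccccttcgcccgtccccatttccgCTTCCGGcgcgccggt
The Cox6a1 stretch holds 1 match of each motif and that of Sdha 2 of NRF1, and no match in the Atp5g1 stretch says only that these letters are not there.

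Across the 70 promoters the NRF1 letters occurred in 15, or 21.4%, against 4.78% of all 27025 promoters, and the GABPA letters in 17, or 24.3%, against 9.12%. YY1 (AAGATGGC) was found in 8, or 11.4%, against 2.88%, and ESRRA (TCAAGGTCA) in 2, or 2.86%, against 0.407%. Searched on both strands, these counts are descriptions of sequence and not sites of binding. The NRF1 share was nearly the same in members lower in HSC than in GMP (11 of 50, 22%) and in the other members tested (4 of 18, 22.2%). The GABPA share was 14 of 50 (28%) against 3 of 18 (16.7%), and the YY1 share 7 of 50 (14%) against 1 of 18 (5.56%), and neither contrast was tested. ESRRA letters stood in 2 of the 50 and 0 of the 18.

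Against MEP the stem cell fraction was again on the low side, in a comparison that shares its HSC arrays with the one above. In HSC 48 members were lower than in MEP and 1, Cox7a2l (0.22 ± 0.07, adjusted p = 0.0197), was higher, where 15.5% of all genes were called lower and 17.4% higher (32.9% in either direction). By complex, 24 of 39 genes of complex I, 3 of 4 of II, 5 of 8 of III, 5 of 14 of IV and 11 of 17 of V were lower. After Atp5g1, the largest differences were those of Ndufb1 (-0.89 ± 0.14, 2.6e-05), Ndufaf1 (-0.80 ± 0.19, 0.00241), Sdhd (-0.77 ± 0.12, 4.19e-05), Uqcrq (-0.77 ± 0.12, 2.96e-05), Ndufaf4 (-0.75, 0.00108), Uqcr11 (-0.73 ± 0.11, 3.97e-05) and Uqcrc1 (-0.67 ± 0.18, 0.00507). The second Uqcrq probe set again went the other way, at 0.66 (0.0259), and the Sdhd value is that of its brightest probe set only. Atp5b, which did not separate HSC from GMP, was 10.52, 10.53, 10.52, 10.55 and 10.63 in HSC and 10.79, 11.10 and 11.62 in MEP, a difference of -0.62 ± 0.19 (0.0163). This comparison rests on few MEP arrays. Without MEP replicate 3, 25 members were called in all in place of 49, and with the intensities as deposited 24 were called (23 lower and 1 higher), a setting that moved the median of all genes from -0.03 to 0.11. The calls of Atp5b, Atp5g3, Cox7a2, Uqcrc1, Uqcrc2, Sdhb and Cox6b1 were lost without MEP replicate 3.

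The arrays labelled CMP, whose Fcgr3 and Cd34 levels went against that label, lay between HSC and GMP. No member was higher in CMP than in GMP and 12 were lower, where 8.59% and 8.18% of all genes were called. The median difference was -0.15. The largest were those of Uqcrq (-0.60 ± 0.11, adjusted p = 0.000654), Sdhd (-0.53 ± 0.12, 0.003), Uqcr11 (-0.48 ± 0.11, 0.00441), Ndufb7 (-0.39 ± 0.09, 0.00527) and Atp5g1 (-0.38 ± 0.11, 0.0258), followed by Ndufb6, Ndufv3, Cox7a2, Ndufa5, Ndufc1, Ndufb2 and Ndufa1. Uqcrq and Sdhd rank first on their brightest probe sets only, and a second probe set of each differed in sign between HSC and GMP. The count fell to 4 without CMP replicate 2, to 5 without CMP replicate 3 or GMP replicate 3, to 6 without GMP replicate 2, to 7 without GMP replicate 4, and to 6 without the first replicates of HSC, CMP and GMP. CMP arrays also carried summed megakaryocyte markers of 3079 to 8547, against 813 to 1523 in GMP, and summed erythroid markers of 818 to 2443, and their part in these differences was not tested.

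MEP and GMP, the groups with the highest levels, differed in few members. In MEP 6 were lower and 3 higher than in GMP, at backgrounds of 15.6% and 11.8% (27.4% together), and the median difference was -0.02. Ndufb7 was lower by the largest amount (-0.48 ± 0.10, adjusted p = 0.000932), and Ndufb8, Uqcrq (on its brightest probe set only), Ndufa13, Ndufc1 and Ndufb2 followed. Cox8c (0.52 ± 0.16, 0.0168), the assembly factor Ndufaf7 (0.33 ± 0.10, 0.0175) and Ndufa10 (0.25 ± 0.09, 0.0473) were higher. The split was 11 lower and 1 higher with the intensities as deposited. The total of 9 fell to 2 without GMP replicate 2 or MEP replicate 2, to 4 without MEP replicate 1 or without the arrays of replicate 1, and to 1 when these groups were fitted alone.

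The leukemic cells carried fewer transcripts of this kind than the normal GMP whose surface profile they share. Of the 82 members 37 were lower in L-GMP and 2 higher, where 18.3% and 15.2% of all genes were called, and the median difference was -0.21 against 0.01. By complex, 17 of 39 genes of complex I, all 4 of complex II, 4 of 8 of III, 4 of 14 of IV and 8 of 17 of V were lower. The total of 39 calls fell to 23 without GMP replicate 3 and to 24 without GMP replicate 4, and the calls of Atp5a1, Cox4i1, Cox8a, Sdha, Sdhd, Uqcrc1, Ndufs3 and Ndufs8 were each lost on leaving out some single array. Macrophage markers moved with this comparison. Adgre1 was at 10.48 ± 0.23 in L-GMP and 7.36 ± 0.15 in GMP, and Cd68 at 9.22 ± 0.17 and 7.83 ± 0.24, while Mpeg1 (9.91 and 9.55), Csf1r (11.11 and 11.51) and C1qb (6.32 and 5.62) differed less and C1qa lay near the floor in both. The 6 summed to 4559 to 5900 in L-GMP against 4021 to 4253 in GMP. L-GMP arrays also differed from GMP arrays in their summed GMP markers and in the mean level of 23 immediate early genes (7.01 to 7.87 against 7.31 to 9.40), and the part of these in the result was not tested. Without the replicate 1 arrays of HSC, CMP and GMP, on which the immediate early genes were low, 26 members were lower and 3 higher.

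All 6 core subunits of complex I were lower in L-GMP than in GMP, and this count was the same with the intensities as deposited and after quantile normalization. For Ndufv1 the 6 L-GMP arrays ran from 9.78 to 10.04 (median 9.84), under all arrays of CMP, GMP and MEP, with 10.66, 10.61 and 10.95 in MEP. The L-GMP minus GMP difference was -0.72 ± 0.09 (adjusted p = 1.49e-06), the same in sign and close in size on 3 probe sets (-0.66 to -0.72). Ndufs1, the largest subunit of the electron input module, was 8.71, 8.59, 9.04 and 9.03 in GMP and 7.80 to 8.53 (median 8.44) in L-GMP, a difference of -0.51 ± 0.14 (0.00638). Ndufs7 (-0.37 ± 0.10, 0.0072), Ndufs3 (-0.34 ± 0.12, 0.0283), Ndufs8 (-0.32 ± 0.11, 0.0259) and Ndufv2 (-0.38) completed the set. Of the 12 Ndufb and Ndufc subunits, by contrast, 2 were lower and the median was -0.17. Ndufb7 in L-GMP ran from 10.69 to 11.06 (median 10.77), overlapping GMP, and differed by -0.17 ± 0.09 (0.144, interval -0.35 to 0.01). The contrast between these classes was not itself tested. Of the 16 accessory Ndufa, Ndufs and Ndufv genes 5 were lower, among them Ndufa12 (-0.61 ± 0.08, 4.47e-06) and Ndufa4 (-0.57 ± 0.12, 0.000905), named as a complex I gene but now placed in complex IV.

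The 5 assembly factors, which act while complex I is being built, went separate ways. Ndufaf1, which works on the membrane arm, was 7.37, 7.50, 7.46 and 7.64 in GMP, 7.61, 7.50 and 8.26 in MEP and 6.21 to 6.62 (median 6.47) in L-GMP, with no overlap between L-GMP and either. The difference from GMP was -1.02 ± 0.17 (adjusted p = 6.68e-05), the largest of any member. Ndufaf1 was dim, above the sorted set's median of 6.75 on 15 of 22 arrays. Every L-GMP array lay under that median, so the gene passed the filter on arrays of the other groups. Ndufaf4 was 9.33, 9.28, 9.05 and 9.24 in GMP and 7.95 to 8.64 (median 8.21) in L-GMP, a difference of -0.97 ± 0.14 (2.3e-05) that was -1.67 on the second probe set. Its partner Ndufaf3, with which it forms a complex early in assembly, was the reverse: 7.88, 7.87, 8.08 and 8.15 in GMP, 7.65, 7.75, 7.52, 7.53 and 7.64 in HSC, and 8.44 to 8.95 (median 8.61) in L-GMP. Every L-GMP array exceeded every normal array of these groups, and Ndufaf3 was higher by 0.66 ± 0.12 than in GMP (0.000195), by 1.04 ± 0.11 than in HSC (1.08e-07) and by 0.91 ± 0.13 than in MEP (6.38e-06). Ndufaf1 and Ndufaf3 were each measured by 1 probe set. Ndufaf5 (-0.40) and Ndufaf7 (-0.24 ± 0.09, 0.0357) were lower in L-GMP than in GMP, Ndufaf5 being dim as well, above the median on 4 of 22 arrays.

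In complex II all 4 subunits were lower in L-GMP than in GMP: Sdhc at -0.55 ± 0.14 (adjusted p = 0.00358), Sdhb at -0.44 ± 0.10 (0.00147), Sdhd at -0.31 ± 0.11 (0.0309) and Sdha at -0.29 ± 0.11 (0.04). Sdha ran from 9.55 to 10.07 (median 9.74) in L-GMP, overlapping GMP, and gave -0.57 (0.000991) on its second probe set. The second Sdhd probe set gave 0.16 (0.442). As deposited, 3 of the 4 were called. Among complex III genes Uqcr11 (-0.53 ± 0.10, 0.000373), Uqcrq (-0.50 ± 0.10, 0.000802), Uqcrc1 (-0.41 ± 0.16, 0.0465) and Uqcrc2 (-0.28 ± 0.08, 0.00786) were lower. Within complex V, Atp5g1 ran from 9.74 to 10.02 (median 9.87) in L-GMP, below all GMP arrays and above all HSC arrays, with a difference from GMP of -0.60 ± 0.10 (0.000138). Atp5g3 was 11.90 to 12.08 (median 11.98), a difference of -0.35 ± 0.07 (0.000709), and Atp5g2 was 11.28 to 11.61 (median 11.53), a difference of 0.03 ± 0.10 (0.878). The Atp5g1 difference minus that of Atp5g2 was -0.62, and minus that of Atp5g3 it was -0.25 (exact permutation tests over arrays, two-sided p = 0.00952 for both, the smallest that these arrays allow, adjusted 0.0381).

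Complex IV had the smallest share of calls between L-GMP and GMP, with 4 of 14 genes lower and 1 higher, Cox7a2l (0.18 ± 0.06, adjusted p = 0.0281), a call lost without GMP replicate 3, GMP replicate 4 or L-GMP replicate 6. Cox7a2 did not differ detectably, at 12.53 to 12.95 (median 12.73) in L-GMP and a difference of 0.01 ± 0.09 (0.946, interval -0.18 to 0.21). For Cox8a against Cox8c the gap between the differences was -0.57 (exact permutation test, two-sided p = 0.019, adjusted 0.0457), for Cox6b1 against Cox6b2 it was -0.63 (p = 0.0476, adjusted 0.0879), and for Cox7a2 against Cox7a2l it was -0.17 (p = 0.105, adjusted 0.18). In all, 10 of the 24 pair tests passed and 14 did not.

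Against HSC the leukemic cells were higher in some parts of the chain and lower in others. In L-GMP 29 members were higher and 9 lower, where 23.3% and 23.9% of all genes were called (47.2% together), and the median difference was 0.14 against 0.00 over all genes. The mean level of immediate early genes did not overlap between these groups (7.01 to 7.87 in L-GMP, 8.59 to 11.16 in HSC), and its part was not tested. The Ndufb and Ndufc series supplied 10 of the higher calls (10 of 12, median 0.40, and 9 under each of the other scalings). Ndufb7 (0.63 ± 0.08, adjusted p = 1.2e-06), Ndufb1 (0.61 ± 0.11, 0.000133) and Ndufb10 (0.52 ± 0.08, 1.97e-05) belonged to it, and Ndufa1 (0.60 ± 0.08, 9.34e-07) and Cox7a2 (0.55 ± 0.09, 1.97e-05) showed differences of like size. Sdhd (0.60 ± 0.10, 4.85e-05) and Uqcrq (0.61 ± 0.10, 2.64e-05) were also higher on their brightest probe sets, the others giving -0.10 (0.604) and -0.62 (0.00817). The 6 core subunits of complex I behaved otherwise: none was higher and 2 were lower under all 3 scalings, Ndufv1 (-0.28 ± 0.08, 0.00613) and Ndufs1 (-0.33 ± 0.13, 0.0359, a call lost with single arrays left out). Sdha was lower too, with every L-GMP array under every HSC array, at -0.52 ± 0.10 (0.000192), and -0.34 (0.0183) on its second probe set. Also lower were Ndufaf1 (-0.52 ± 0.16, 0.00894), Uqcrh (-0.40 ± 0.11, 0.00543), Ndufa4 (-0.34, 0.0156), Ndufa12 (-0.29 ± 0.07, 0.00304), Cox7a2l (-0.22 ± 0.06, 0.00315) and Cox7c (-0.84 ± 0.28, 0.017), the last measured by 1 of its 2 probe sets, the other being too dim, and lost without HSC replicate 4 or HSC replicate 5. The Cox7c probe set used was itself dim, above the sorted set's median of 6.75 on 13 of 22 arrays. Every HSC array lay above that median, but among L-GMP only replicate 6 did (7.74). Cox7c thus passed the filter mainly on arrays outside L-GMP.

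Of the 73 members whose mean was lower in HSC than in GMP, L-GMP lay between the 2 in 43, below both in 20 and above both in 10. The same HSC and GMP means picked these members and set the bounds, which favours a place between. No share over all genes was counted, so the split only describes these members. Against MEP 29 members were lower in L-GMP and 4 higher (22.9% and 22.2% of all genes, 45.1% together), or 24 lower and 7 higher with the intensities as deposited. The lower ones were led by Ndufaf1 (-1.32 ± 0.18, adjusted p = 3.93e-06), Ndufaf4 (-1.0 ± 0.16, 1.99e-05), Ndufs1 (-0.92 ± 0.15, 2.59e-05), Atp5g1 (-0.88 ± 0.11, 1.68e-06), Ndufv1 (-0.87 ± 0.09, 1.21e-07) and Atp5b (-0.71 ± 0.19, 0.00352), followed by Ndufa12 and Ndufa10. Higher were Ndufaf3, Ndufb7 (0.32 ± 0.09, 0.00897), Atp5e (0.31 ± 0.11, 0.025) and Ndufb11 (0.20 ± 0.07, 0.0266). The comparisons of HSC with MEP and of L-GMP with GMP share no arrays. They had 28 lower members in common, which is 58.3% of the 48 lower in HSC and 75.7% of the 37 lower in L-GMP. Over all genes tested, 532 were lower in both, which is 40.7% of 1307 and 34.5% of 1544. The base rates were unlike, as 48 and 37 of 82 members were lower against 1307 and 1544 of 8425 genes. These shares in common therefore cannot be compared directly, and the difference was not tested. Lower in L-GMP than in GMP but not called between HSC and MEP were Atp5a1, Cox4i1, Cox6c, Cox8a, Ndufa4, Ndufaf5, Ndufs3, Ndufs8 and Sdha.

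Expression of MLL-AF9 in GMP, compared with GFP, gave no call among the members. With limma, 0 of 79 passed and 0 had an unadjusted p under 0.05, where 0.0277% of all genes were called (2 of 7233, 1 or 0.0138% in each direction) and 740 had such an unadjusted p. The mean level over the 79 members was 12.16 ± 0.03 (SD, n = 3) with GFP and 12.17 ± 0.06 (n = 3) with MLL-AF9, and the differences ran from -0.20 to 0.41 with a median of 0.00. Ndufab1, the mitochondrial acyl carrier protein, had the lowest p. It was 11.54, 11.79 and 11.84 with GFP and 11.98, 12.03 and 11.99 with MLL-AF9, a difference of 0.28 ± 0.12 (adjusted p = 0.496). These arrays did not overlap, which 8.41% of all genes showed in that direction. Ndufaf4 was 9.91, 10.87 and 10.86 with GFP and 10.81, 11.11 and 10.95 with MLL-AF9 (0.41 ± 0.27, 0.639), Ndufb3 differed by -0.16 ± 0.10 (0.626) and Sdha by -0.14 ± 0.11 (0.689). For Atp5g1 the difference was 0.07 ± 0.12 (0.876, interval -0.22 to 0.37), for Ndufv1 -0.11 ± 0.13 (0.8, interval -0.41 to 0.19) for Ndufaf3 0.01 ± 0.19 (0.991, interval -0.43 to 0.45), for Ndufs1 -0.18 ± 0.25 (0.852, interval -0.78 to 0.42) and for Sdhc -0.20 ± 0.17 (0.705, interval -0.60 to 0.19). The spread of these differences over the members had an SD of 0.096. Summed macrophage markers were 14540 to 24963 with GFP and 6465 to 12519 with MLL-AF9, on the same arrays. The mean level of immediate early genes was 9.64 to 10.35 with GFP and 8.94 to 9.55 with MLL-AF9. The part of either in the result was not tested.

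**Figure D5:**
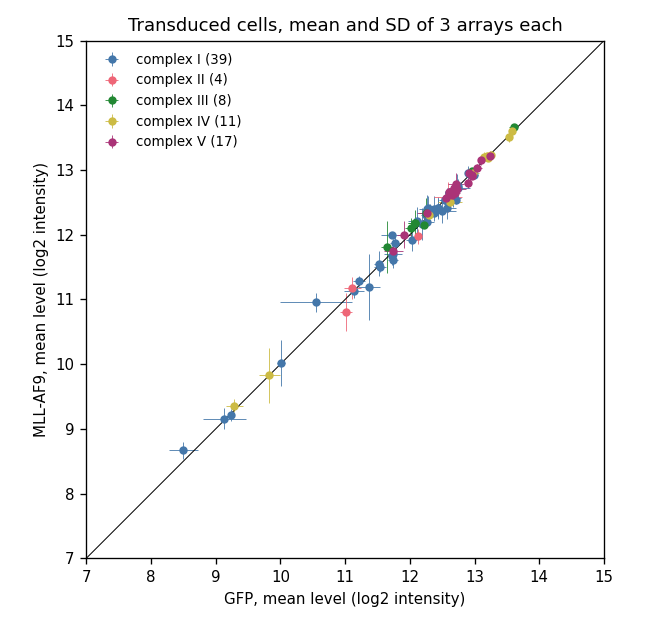
Mean log2 level of each tested member in GMP expressing MLL-AF9 (vertical) against GMP expressing GFP (horizontal), 3 arrays each, with SD bars, coloured by complex (39, 4, 8, 11 and 17 genes of complexes I to V); the line marks equal levels. The members lie along the line, with differences between -0.20 and 0.41.

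Other genes of the mitochondrion were counted from 6 lists. Between HSC and GMP, where 21.7% of all genes were lower and 19.4% higher, 9 of 15 citrate cycle enzymes were lower and 1 higher, 12 of 18 genes of the outer membrane, protein import and chaperones were lower and none higher, 4 of 6 electron carriers and subunits outside the rule were lower and none higher, and 9 of 21 assembly factors were lower and 1 higher. Named examples are the pyruvate dehydrogenase component Dlat (-1.35 ± 0.18, adjusted p = 3.02e-06), the import pore Tomm40 (-0.84), cytochrome c (Cycs, -0.77 ± 0.10, 1.79e-06) and the complex I factor Ecsit (-0.98). Of 16 regulators of mitochondrial biogenesis 2 were higher, Gabpb1 (0.95) and Tfam (0.31), and 1 lower, Lrpprc (-0.56). The 16 glycolysis genes were divided, with 4 higher, including Aldoc (2.80) and Pfkm (1.06), and 6 lower, including Pfkp (-1.19), Pgam1 (-1.15), Hk2 (-0.85) and Ldha (-0.80).

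Between L-GMP and GMP, where 18.3% of all genes were lower and 15.2% higher, these lists gave 8 of 15, 11 of 18, 3 of 6, 9 of 21 and 5 of 16 lower in the same order, and none higher. The chaperones Hspe1 (-1.0), Hspa9 (-0.82) and Hspd1 (-0.73), the ADP/ATP carrier Slc25a4 (-0.70), Dlat (-0.99) and the complex III factor Bcs1l (-0.94) were among them. Ppargc1b, a coactivator of mitochondrial genes, differed by -2.30 ± 0.15 (adjusted p = 1.18e-10), and Myc (-0.97), Pprc1 (-0.73) and Tfam (-0.30) were also lower. In glycolysis 5 of 16 were lower, including Pfkl (-0.77) and Ldhb (-0.62), and 2 higher, Aldoc (0.88) and Pfkm (0.43). Between HSC and MEP (15.5% of all genes lower, 17.4% higher) the lower counts were 9, 13, 4, 7 and 5, with 2 regulators higher, and glycolysis had 6 higher and 3 lower. Between L-GMP and HSC, where 23.3% of all genes were higher and 23.9% lower, the same 5 lists had 2, 3, 2, 4 and 0 higher and 4, 5, 1, 5 and 6 lower, and glycolysis 5 higher and 6 lower. None of the genes of the 6 lists was called between MLL-AF9 and GFP.

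The 3′ to 5′ signal ratio, a sign of RNA integrity, had group means on the log2 scale of 3.09 in HSC, 3.0 in CMP, 2.92 in GMP, 3.10 in MEP and 2.85 in L-GMP. With that ratio as a covariate, 56 members were called between HSC and GMP, 34 between L-GMP and GMP and 32 between L-GMP and HSC, against 60, 39 and 38 without it. These totals take both directions together. No share over all genes under the covariate is given, so they only describe the members. Over all 141 probe sets of members that passed the filter, 99 were lower and 4 higher in HSC than in GMP, 57 lower and 3 higher in L-GMP than in GMP, and 51 higher and 15 lower in L-GMP than in HSC. No share over all probe sets kept is given beside these counts, so they only describe the members. Of 41 members with several such probe sets, 34 had 1 sign throughout between HSC and GMP, the others being Atp5c1, Ndufa7, Ndufb9, Sdha, Sdhd, Uqcrc2 and Uqcrq.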

How the data were processed

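Total RNA of the sorted cells was labelled as biotinylated cRNA and hybridised to 1-colour Affymetrix mouse arrays, 1 array per sample. The deposited values are 1 linear intensity per probe set. MAS5 produced them, as the submitters' processing notes say, and its version is not given in the sources used here. Every array holds some values at or below 0 (187 to 413), for which the floor stands in. The number of arrays limits the precision.

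Within each set of arrays, values were scaled to a common mean trimmed by 2% at each end (factors 0.923 to 1.12), raised to the 25th percentile (38.6 in the sorted and 78.0 in the transduced set) and put on the log2 scale. Probe sets above the median of their set on at least 3 arrays were kept, and the brightest stood for its gene. Symbols are those of the platform annotation, and the 84 members were all found in RefSeq. limma 3.58.1 in R 4.3.3 fitted group means, over all 22 sorted arrays together and over the 6 transduced arrays, with Benjamini-Hochberg adjustment over all genes. The code was tested on simulated data.

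Members and lists were chosen with earlier results of these data known. Values were written out for the 8 called members of largest change in each direction, the 4 of lowest p where fewer than 4 were called, and fixed sets of core, catalytic and isoform genes. The tests of paralogue pairs and the class counts under other scalings were added after the data were seen. In the transduced set 3 of 3 same-numbered pairs deviated together (r 0.379 to 0.596). Differently numbered arrays did so too, GFP 3 with MLL-AF9 2 (r = 0.475) and GFP 2 with MLL-AF9 3 (r = 0.192), so pairing by number is uncertain. The values printed come from the fit without pairing, and the fit with the replicate as a block also called 0 members.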

Additional observations from a re-analysis of the deposited data

Results flagged for a closer look

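Among the members named and the mean of each complex, 232 groups of 4 to 6 arrays were checked for an array far from the rest of its group, and 15 stood apart, where chance gives about 1 in 20. Of these, 5 concern HSC replicate 4: Atp5g2 at 11.25 (the others 11.57 to 11.66), Ndufa1 at 11.44 (11.64 to 11.68), Ndufs8 at 10.45 (10.71 to 10.78), the mean of complex V at 10.91 (11.04 to 11.07) and, in the other direction, Cox6a2 at 6.91 (6.14 to 6.32). In CMP they were Cox4i1 on replicate 2 at 11.73 (11.93 to 11.96), and on replicate 4 Cox6b2 at 9.18 (8.74 to 8.81) and Cox7a2l at 11.60 (11.77 to 11.79). In GMP they were Cox6b2 on replicate 1 at 9.70 (8.71 to 8.76) and Ndufa12 on replicate 4 at 11.33 (11.39 to 11.40). In L-GMP they were Atp5a1 at 10.60 (10.95 to 11.14) and Ndufs1 at 7.80 (8.34 to 8.53) on replicate 3, Ndufs3 at 9.68 (9.82 to 9.87) on replicate 2, Uqcrh at 10.38 (10.93 to 11.09) on replicate 4 and Uqcrq at 9.32 (9.60 to 9.64) on replicate 5.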

How the results depend on the processing

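The direction of the calls held in all but 1 of the gene and setting pairs compared: 4792 kept their call or lack of one, 286 lost a call, 61 gained one, and Uqcrq reversed between L-GMP and HSC when all its probe sets were averaged (-0.00729, adjusted p = 0.961, against 0.61). With 1 array left out at a time the members called ranged from 48 to 60 for HSC against GMP, 25 to 52 for HSC against MEP, 23 to 40 for L-GMP against GMP, 35 to 40 for L-GMP against HSC, 28 to 35 for L-GMP against MEP, 4 to 15 for CMP against GMP, 2 to 11 for MEP against GMP and 0 to 0 for MLL-AF9 against GFP. Counts that moved by over 1.5 times otherwise were 24 for HSC against MEP as deposited (49), 6 for CMP against GMP without the first replicates of HSC, CMP and GMP (12), and for MEP against GMP (9) 1 with these groups fitted alone and 4 without those replicates. In the sorted set 18 of 37 same-numbered pairs deviated together (r over 0.1), so the numbers were not taken to pair the arrays, although single pairs such as HSC 1 and CMP 1 did correlate (r = 0.528). The replicate block gave 59 calls for HSC against GMP, 45 for HSC against MEP, 31 for L-GMP against GMP, 39 for L-GMP against HSC, 33 for L-GMP against MEP, 9 for CMP against GMP and 9 for MEP against GMP. Dim genes, and those with 1 probe set, are measured least well.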
